A study of Mus musculus with 12 samples.

Results

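Early transcription after B cell receptor crosslinking was read in wild-type mouse follicular B cells by setting the arrays of 2 h of anti-IgM against those of 0 h. The comparison rests on the 4 arrays whose titles carry the wild-type label (ZFXwt) and 2 h or 0 h, of 12 arrays in the series, and it covers all 12190 genes that could be tested. The cells were splenic follicular B cells of 8-week-old male 129SvEv mice, sorted as B220+ AA4.1- CD23hi CD21int and put in culture with 10 µg/mL of anti-IgM, an antibody that crosslinks the surface IgM of the receptor. The other groups compared here are wild type at 12 h of the same culture and cells labelled Zfx cko, a conditional knockout of the transcription factor Zfx, at 0 h and 2 h. The cko arrays of 12 h entered the shared fit of all 12 arrays and the term for the control-probe division described below. No source used here names the Cre line behind the knockout or the number of mice behind an array. RNA inputs of 100 ng went through 2 rounds of linear amplification before hybridization. Each group has 2 arrays, hybridized as duplicates, so the p-values may measure technical spread alone. No array of cells cultured for 2 h without anti-IgM was used, so the antibody and 2 h of culture cannot be told apart.

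The B cell receptor pairs a membrane immunoglobulin with the signalling chains CD79A and CD79B. Crosslinking activates the kinases LYN and SYK, then PLCG2, BTK and PI3K, and these pass the signal on as calcium, ERK and NF-kB activity. Within hours a resting B cell turns on immediate early transcription factors, loses the factors that hold it in quiescence and starts the growth in mass that comes before DNA replication. Coreceptors such as CD22 and FCGR2B damp the signal, and without help from T cells or innate receptors many stimulated cells later die.

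Signals are linear array intensities, and differences between 2 h and 0 h are given on the scale of log2(signal + 16) with their standard error, in parentheses after the gene, with n = 2 arrays in each group. A gene was called, and is said to have risen or fallen, at a limma adjusted p under 0.05. On this scale low signals give compressed differences, and no detection calls were used here. In wild type 7277 of the 12190 genes were called (59.7%), 2867 of them higher at 2 h (23.5% of all genes tested) and 4410 lower (36.2%), and the median difference over all genes was -0.24. These shares are the background for every count of list members below.

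The markers of the sort were read first. Ptprc, which encodes B220, had signals of 11532 and 11621 at 0 h and 4552 and 5236 at 2 h, Fcer2a, which encodes CD23, had 5107 and 4629.7 at 0 h and 2289 and 1923 at 2 h, and Cr2, which encodes CD21, had 4406 and 3322 at 0 h and 1261 and 1388 at 2 h. All 3 genes were lower on the 2 h arrays than on the 0 h arrays, although 1 of the 2 probe sets of Ptprc rose. Cd93, the gene of AA4.1, was dim throughout (54.4 and 65.4 at 0 h and 55.5 and 43.5 at 2 h). Of 15 follicular and B lineage markers tested, 1 rose and 9 fell, and their summed signal went from 138152 and 142438 to 73271 and 72965. Markers of other cells were on the arrays as well. Markers of T and NK cells gave 9 falls and 0 rises of 14, with a summed signal of 4239.8 and 4099.7 at 0 h and 1772 and 1898 at 2 h. Of 19 myeloid and granulocyte markers 10 fell and 3 rose, with a summed signal of 25272 and 25790.0 at 0 h and 18202 and 18238 at 2 h, with the neutrophil gene S100a8 (11849.9 and 12117 at 0 h and 6906 and 7158 at 2 h) as the brightest of them. Marginal zone and B1 markers gave 4 rises and 3 falls of 9, and their summed signal went from 4609.5 and 4357 to 4888 and 4820.0. Plasma cell markers gave 3 and 3 of 8, and their summed signal went from 14145 and 14540.1 to 20993 and 21369. Erythroid and platelet markers gave 2 and 4 of 8, and their sum went from 2218 and 2326 to 4804 and 4670.0. These lists hold Irf4 and Tfrc, which activated B cells express too and whose signals are given below. The signal of Irf4 rose by more than the plasma cell sum, and that of Tfrc by more than the erythroid and platelet sum. Markers of stroma and endothelium gave 0 and 3 of 8, with sums of 2250.1 and 1909.8 at 0 h and 606 and 766 at 2 h. No tested marker was at 0, but the filter on the mean over all arrays had left out the dimmest probe sets beforehand. In bulk RNA, fewer cells of a type and less RNA per cell cannot be told apart, and the part of other cells in the falls below was not tested.

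Control probe sets divided the 12 arrays in a way that runs along this comparison. The ratio of the actin 5′ to the actin 3′ probe set was 3.27 and 3.33% on the wild-type 0 h arrays and 8.51 and 8.41% on the 2 h arrays, and the 18S ribosomal RNA signal went from 6636 and 7305 to 1299 and 1262. Over all arrays, those of 2 h in either genotype and of 12 h in cko stood on one side (8.41 to 19.1%), and those of 0 h in either genotype and of 12 h in wild type on the other (1.80 to 3.33%). Because wild-type 12 h and cko 12 h lie on opposite sides, a model with a term for the division, a genotype effect and 1 time effect for both genotypes could be fitted. It rests on the assumption that both genotypes respond alike, and its values stand beside the gene groups below as the fit with the division term. The size of the term comes from the difference between cko and wild type at 12 h beyond the genotype effect. A genotype difference particular to 12 h would therefore be counted as the division.

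Over all genes the median difference of -0.24 became -0.04 under median scaling of the arrays, and rises went from 39.4 to 49.3% of the calls. At least 2-fold differences were called for 1370 rises (11.2%) and 2354 falls (19.3%), and at least 8-fold differences for 64 rises (0.525%) and 69 falls (0.566%). Signals of both groups did not overlap for 9596 genes (78.7%). With the division term 4708 genes were called, among them 1544 of the 2867 rises (53.9%) and 2243 of the 4410 falls (50.9%) in the same direction, while 118 rises and 96 falls were called in the opposite one. Of the 64 rises of at least 8-fold, 55 were called with the term, and of the 69 falls, 68 were.

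**Figure D1:**
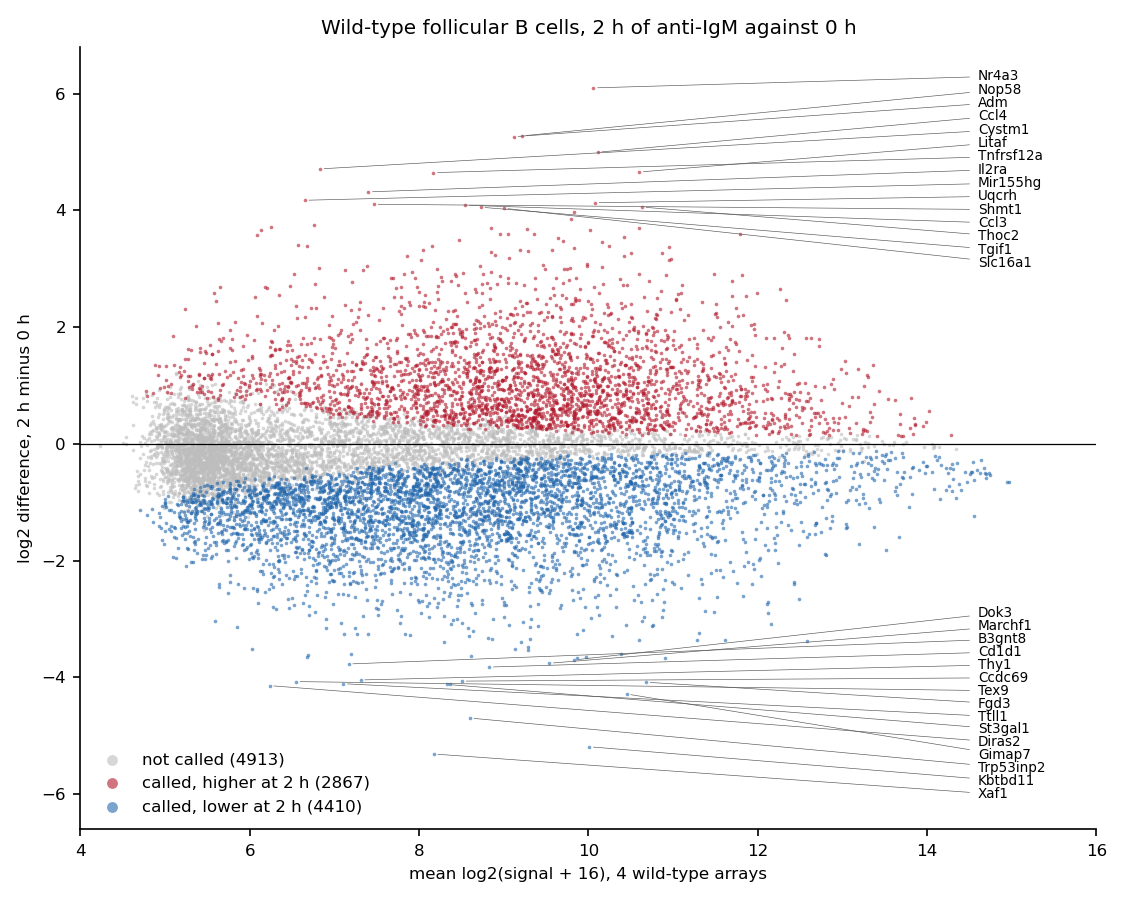
Log2 difference between 2 h and 0 h against the mean log2(signal + 16) of the 4 wild-type arrays, 1 point per gene (12190 genes). Genes called at an adjusted p under 0.05 are coloured by direction, 2867 higher and 4410 lower, and the 15 largest rises and 15 largest falls that the naming rule allows are labelled.

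The largest rises joined signalling genes with genes of growth. Nr4a3, an orphan nuclear receptor gene induced by antigen receptors, had signals of 126 and 101 at 0 h and 8701 and 8942 at 2 h (6.10 ± 0.10, adjusted p = 6.83e-14). The chemokine gene Ccl4, which attracts T cells and monocytes, had 172 and 187 at 0 h and 5945 and 6515 at 2 h (5.0 ± 0.10), and the related chemokine gene Ccl3 had 56.6 and 97 at 0 h and 1708 and 1362 at 2 h (4.09 ± 0.21). Adm, the gene of the secreted peptide adrenomedullin, had 77.5 and 70.2 at 0 h and 3386 and 3482 at 2 h (5.26 ± 0.15). On each of these genes both 2 h arrays lay far above both 0 h arrays, which the choice of the largest rises without overlap fixed in advance. Il2ra, the alpha chain of the interleukin 2 receptor, rose from a dim 21.1 and 22.7 to 727 and 752 (4.32 ± 0.23), and Tnfrsf12a, a receptor of the TNF family, from 23.1 and 68.6 to 1473 and 1379 (4.65 ± 0.27). The endosomal protein gene Litaf (4.66 ± 0.10), the transmembrane protein gene Cystm1 (4.71 ± 0.33), the corepressor gene Tgif1 (4.05 ± 0.20), the folate enzyme gene Shmt1 (4.11 ± 0.37) and the lactate transporter gene Slc16a1 (4.04 ± 0.13) also belonged to the 15 largest rises. Nop58, a core protein of box C/D small nucleolar RNPs, had 70.8 and 89 at 0 h and 3523 and 3855 at 2 h (5.28 ± 0.13), and with the division term its difference was 2.10 ± 0.21. Of the 15 genes 14 were called with the term. Uqcrh, a subunit of respiratory complex III, was the exception, at 4.13 ± 0.12 without it and 0.09 ± 0.19 with it, and Thoc2, a subunit of the THO complex of mRNA export, went from 4.06 ± 0.07 to 0.67 ± 0.15.

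The remaining one of the 15 is Mir155hg, the host transcript of miR-155, a microRNA needed for normal B cell responses. Its signals were 1.28 and 16.3 at 0 h and 398 and 423 at 2 h (4.17 ± 0.27), so it went from near the bottom of the array to a clear signal on both 2 h arrays. The array reads the host transcript and not the mature microRNA, whose RefSeq sequence is shown to say which product the transcript holds, with its seed (bases 2 to 8) in capitals.
mmu-miR-155-5p, GRCm38.p6, chr16:84714143-84714165, strand +: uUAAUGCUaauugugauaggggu

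The largest falls were in genes with diverse roles. Xaf1, an interferon-inducible gene whose protein binds the apoptosis inhibitor XIAP, had signals of 1894 and 1719 at 0 h and 21.1 and 40.5 at 2 h (-5.31 ± 0.18, adjusted p = 9.44e-12). Kbtbd11 had 5762 and 6700.1 at 0 h and 155 and 155 at 2 h (-5.19 ± 0.09), and Trp53inp2, a regulator of autophagy, had 1953 and 1969 at 0 h and 56.5 and 64.1 at 2 h (-4.70 ± 0.18). Gimap7, a lymphocyte GTPase, had 6375 and 5988 at 0 h and 291 and 313 at 2 h (-4.29 ± 0.10). None of these genes had a 2 h array near the 0 h arrays, which the choice of the largest falls without overlap fixed in advance. Marchf1, the ubiquitin ligase that takes MHC class II and CD86 off the cell surface, went from 2714 and 2723 to 192 and 181 (-3.76 ± 0.17), and the adaptor gene Dok3, which inhibits receptor signalling, from 3308 and 3244 to 233 and 242 (-3.70 ± 0.08). The lipid-presenting molecule gene Cd1d1 (-3.82 ± 0.16), the sialyltransferase gene St3gal1 (-4.12 ± 0.18), the Cdc42 exchange factor gene Fgd3 (-4.08 ± 0.09), the Ras-family gene Diras2 (-4.14 ± 0.29), the tubulin glutamylation gene Ttll1 (-4.11 ± 0.16), the glycosyltransferase gene B3gnt8 (-3.77 ± 0.24), and Ccdc69 (-4.06 ± 0.19) and Tex9 (-4.07 ± 0.30) were the others. The T cell surface gene Thy1 (-4.04 ± 0.19) was also among them, and the fall of T and NK cell markers given above moves with it.

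**Figure D2:**
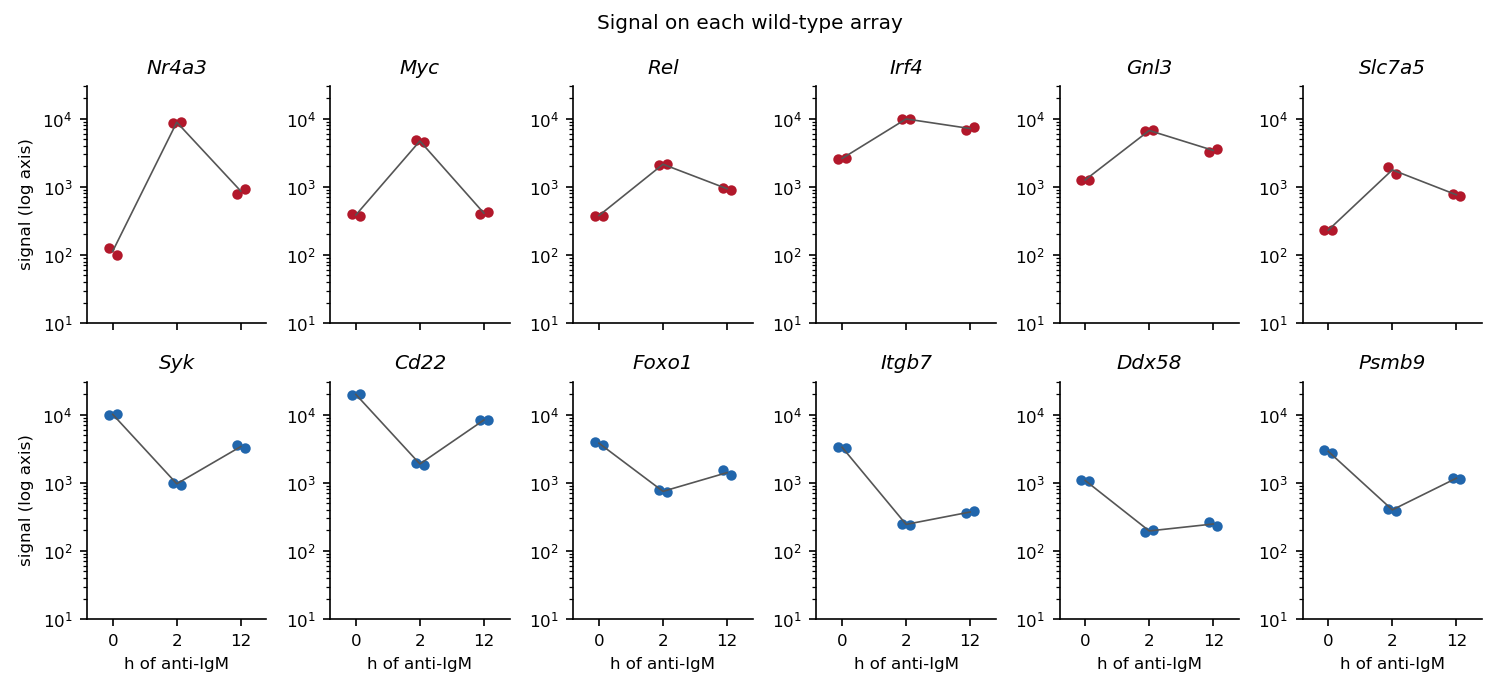
Signal on each wild-type array at 0, 2 and 12 h (log axis, arbitrary units), 1 panel per gene and 1 point per array, with a line through the mean of the 2 arrays of each time. In the 6 upper panels both 2 h arrays lie above both 0 h arrays, and in the 6 lower panels both lie below.

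Immediate early and other induced transcription factors rose as a group. Of 31 tested, 19 rose and 8 fell, with a median of 1.25 against -0.24 over all genes, and 14 of the rises and 3 of the falls were called with the division term. Besides Nr4a3, the receptor gene Nr4a1 had 1276 and 1452 at 0 h and 7939 and 7921 at 2 h (2.53 ± 0.06), Egr1 had 1725 and 1569 at 0 h and 10175 and 9775 at 2 h (2.59 ± 0.06) and Egr2 had 536 and 666 at 0 h and 6995 and 5736 at 2 h (3.37 ± 0.12). EGR1 and EGR2 are zinc finger factors downstream of ERK, and both had a clear signal before stimulation. The cAMP-responsive factor gene Crem (3.67 ± 0.12) and the small MAF gene Maff (3.98 ± 0.14) followed. Fosb, an AP-1 subunit, went against the majority, with 1069 and 1051 at 0 h and 346 and 368 at 2 h (-1.53 ± 0.11), and its difference with the division term was -0.38 ± 0.17. The subunits of AP-1 did not move as one. Chosen for mention after their values were seen, Fosl1 (3.71 ± 0.27), Fosl2 (2.88 ± 0.26) and Junb (1.25 ± 0.20) rose, while Fos, at 11104 and 11778 at 0 h and 7235 and 6465 at 2 h, fell (-0.74 ± 0.07, but 0.23 ± 0.12 with the division term), as did Jun (-1.26 ± 0.10) and Jund (-1.08 ± 0.10). Of the falling subunits only Jun kept a call with the division term (-1.70 ± 0.53).

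Promoters of this list were searched on both strands, over the 250 bases before the RefSeq gene start (GRCm38.p6), for the motifs of factors that receptor signals activate. Of 23 members with a promoter sequence, 7 held an NF-kB motif (30.4%, against 10.8% of 9885 promoters of the genes tested) and 5 held GCGGGGGCG, the EGR motif (21.7% against 5.38%). A CArG box, the motif of SRF, was in 2 (8.7% against 1.41%). The AP-1 motif TGANTCA was in 1 (4.35% against 5.53%) and the CRE, TGACGTCA, also in 1 (4.35% against 2.92%). The NF-kB motif was in 11 of 51 promoters of genes that rose at least 8-fold (21.6%), but in 118 of 1142 of those that rose at least 2-fold (10.3%) and in 219 of 1902 of those that fell at least 2-fold (11.5%), which is near the share of all genes tested. The EGR motif was in 2 of the 51 (3.92%). Such a match is a stretch of letters and not a measured binding site. The windows below show such matches, in capitals, before genes of the immediate early and activation lists, so that the element can be seen beside the value. Fosl2 and Srf were chosen after their values were seen, and Srf fell (-1.03 ± 0.11).
Il2ra, chr2:11642571-11642621, strand +: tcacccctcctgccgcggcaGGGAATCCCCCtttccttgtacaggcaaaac
Fosl2, chr5:32136270-32136320, strand +: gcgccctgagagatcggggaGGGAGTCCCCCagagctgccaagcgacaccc
Nr4a1, chr15:101266766-101266814, strand +: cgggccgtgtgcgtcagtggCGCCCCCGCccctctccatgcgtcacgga
Srf, chr17:46556195-46556264, strand -: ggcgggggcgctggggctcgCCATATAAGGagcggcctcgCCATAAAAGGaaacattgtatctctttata
The first pair shows a GC-rich NF-kB motif in which matches on both strands overlap, Nr4a1 holds the EGR motif on the opposite strand, and Srf holds a pair of CArG boxes.

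The NF-kB pathway gave 11 rises and 5 falls of 19 genes tested (median 0.55), and 8 rises and 2 falls were called with the division term. The subunit gene Rel, which lymphocytes need to enter the cell cycle, had 378 and 376 at 0 h and 2091 and 2179.6 at 2 h (2.45 ± 0.08). Nfkbid, a nuclear IkB protein gene, had 2259 and 2106 at 0 h and 12353 and 11881 at 2 h (2.46 ± 0.07). Tnfaip3, the gene of the ubiquitin-editing inhibitor A20, had 1361 and 1284 at 0 h and 6276 and 6247 at 2 h (2.23 ± 0.08), and the adaptor gene Traf1 (2.50 ± 0.09) and the gene of the receptor-proximal adaptor Bcl10 (1.02 ± 0.05) rose too. Tnip1, a partner of A20, fell (-1.55 ± 0.06).

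Myc led the MYC network. Its signals were 395 and 375 at 0 h and 4869.6 and 4505 at 2 h (3.55 ± 0.12, adjusted p = 1.21e-11), and the difference was 2.60 ± 0.22 with the division term. Mxd4, whose protein competes with MYC for their partner MAX, had 2116 and 2124 at 0 h and 605 and 588 at 2 h (-1.80 ± 0.11), and all 4 of its probe sets fell. Mnt (0.57 ± 0.09) rose and Mxi1 (-0.58 ± 0.13) fell, so the antagonists of MYC did not all move one way. Mlxip (-0.99 ± 0.09), another gene of the network, fell. Max itself rose (1.18 ± 0.17) but was -0.42 ± 0.48 with the division term. Of 11 genes of the network 3 rose and 5 fell. The letters CACGTG, the E-box that MYC and MAX bind, were in 149 of 1142 promoters of genes that rose at least 2-fold (13%), in 173 of 1902 of genes that fell at least 2-fold (9.1%) and in 967 of 9885 of all genes tested (9.78%). They were in 6 of 51 promoters of genes that rose at least 8-fold (11.8%) and in 4 of 48 of the nucleolar ribosome assembly list described below (8.33%). These 3 windows are shown because their genes rose more than 8-fold. The transport protein genes Slc16a1 and Slc25a33 (3.53 ± 0.10) and the coactivator gene Sub1 (3.60 ± 0.06) carry them, and the last 2 were chosen for the match after their values were seen.
Slc16a1, chr3:104638444-104638489, strand +: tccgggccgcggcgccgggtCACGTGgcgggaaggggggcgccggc
Slc25a33, chr4:149774268-149774295, strand -: cgtcacggcccggcctccgcCACGTGac
Sub1, chr15:11996047-11996092, strand -: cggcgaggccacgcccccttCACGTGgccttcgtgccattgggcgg

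Genes of the receptor's own signalling machinery mostly fell. Of 21 proximal signalling genes 13 fell and 3 rose (median -0.64), and with the division term 12 of the falls and 1 of the rises were called. Without 0 h replicate 1, 5 rose. Syk, the kinase recruited to the phosphorylated receptor, had 9951 and 10149 at 0 h and 996 and 932 at 2 h (-3.36 ± 0.07), and 3 of its 4 probe sets fell. Plcg2, the phospholipase that starts the calcium signal, had 3961 and 3880.2 at 0 h and 879 and 877 at 2 h (-2.14 ± 0.07). Cd79b, a signalling chain of the receptor, had 22327 and 22937 at 0 h and 7702 and 7268 at 2 h (-1.59 ± 0.05). The scaffold gene Bank1 (-1.42 ± 0.06) and the heavy chain gene Ighm (-0.94 ± 0.05) fell as well. Fyn, a Src-family kinase, went the other way, with 259 and 329.8 at 0 h and 2393 and 2574 at 2 h (3.02 ± 0.15), and both of its probe sets rose.

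Genes of inhibitors of the receptor mostly fell. Of 20 inhibitory receptors, adaptors and phosphatases 16 fell and 3 rose (median -1.06), and 10 falls were called with the division term. Cd22, a sialic acid receptor that recruits the phosphatase SHP-1, had 19388 and 20051 at 0 h and 1925 and 1838 at 2 h (-3.38 ± 0.05). Siglecg, its relative, had 3976 and 3767 at 0 h and 382 and 383 at 2 h (-3.29 ± 0.08). Mean signals were 10.5-fold lower for Cd22 and 10.1-fold lower for Siglecg at 2 h. The ubiquitin ligase gene Cblb (-1.98 ± 0.07), the inhibitory receptor gene Btla (-1.54 ± 0.05) and Ptprc (-1.24 ± 0.06) fell, while the phosphatase gene Ptpn22 (1.32 ± 0.11) rose, a call lost with the division term (0.23 ± 0.18).

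Calcium and NFAT genes gave 3 rises and 11 falls of 18. Orai1, the pore of store-operated calcium entry, rose from 671 and 645 to 3839.7 and 3842 (2.52 ± 0.08), on both of its probe sets. The IP3 receptors, which release calcium from the endoplasmic reticulum, fell, Itpr2 from 2632 and 2617 to 391 and 336 (-2.80 ± 0.10) and Itpr3 from 1509 and 1660.4 to 262 and 287 (-2.46 ± 0.13). The transcription factor genes Nfatc2 (-2.21 ± 0.23) and Nfatc3 (-0.55 ± 0.07, but 0.25 with its probe sets averaged) and the calcineurin subunit gene Ppp3cc (-1.38 ± 0.17) fell. With the division term 1 rise and 6 falls were called. Feedback genes of the MAPK and PI3K pathways were divided, 7 up and 8 down of 21 (11 up and 6 down under median scaling, and 4 up without 2 h replicate 1). The ERK phosphatase gene Dusp4 had 136 and 182 at 0 h and 2382 and 2046 at 2 h (3.68 ± 0.12), while another ERK phosphatase gene, Dusp6, had 743 and 829 at 0 h and 135 and 106 at 2 h (-2.56 ± 0.16). The Ras activators Rasgrp1 (-2.26 ± 0.10) and Rasgrp3 (-1.21 ± 0.07) fell, and the PI3K adaptor gene Pik3ap1 (0.71 ± 0.05) and the EGF receptor inhibitor gene Errfi1 (1.41 ± 0.13) rose.

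Surface molecules of activation gave 10 rises and 6 falls of 21 (median 0.29), and 8 rises and 3 falls were called with the division term. Cd86, the ligand through which B cells costimulate T cells, had 796 and 821 at 0 h and 3819 and 3815 at 2 h (2.22 ± 0.07). The transferrin receptor gene Tfrc had 1069 and 1110.3 at 0 h and 3812 and 3745 at 2 h (1.78 ± 0.06). The amino acid transporter chain Slc3a2 (1.19 ± 0.06) and the adhesion molecule gene Icam1 (1.24 ± 0.06) rose too, and the interferon-inducible Ly6e (-1.32 ± 0.06) fell. Receptors for the survival factor BAFF moved apart. Tnfrsf13c, the BAFF receptor, had 3008 and 2972 at 0 h and 6075 and 5971 at 2 h (1.01 ± 0.08), and Tnfrsf13b, which encodes TACI, had 921 and 859.8 at 0 h and 342 and 373 at 2 h (-1.28 ± 0.09). Cytokine receptor genes divided as well, with rises of Il21r (1.01 ± 0.10) and Tgfbr1 (0.73 ± 0.08) and falls of Il10ra (-1.99 ± 0.18) and Il4ra (-1.53 ± 0.16). Of 22 genes in the list of BAFF and cytokine receptors and their signalling, 11 rose and 6 fell, and 5 and 3 of these were called with the division term. The rises of that list were 6 without 0 h replicate 1 and 7 without 0 h replicate 2 or 2 h replicate 2.

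Among 21 genes of secreted factors, 11 rose and 4 fell (median 0.58), and 8 rises and 3 falls were called with the division term. Without 0 h replicate 1, 2 fell. Beside Ccl4, Ccl3 and Adm, the inflammatory factor gene Mif (0.64 ± 0.07) rose. Il16, a chemoattractant of CD4+ cells, fell from 4577 and 4397 to 546 and 577 (-2.96 ± 0.08), and Ltb, the membrane chain of lymphotoxin that organises lymphoid tissue, from 6369 and 6969 to 2526 and 2314 (-1.46 ± 0.08).

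Genes of homing and adhesion fell, 14 of 23 against 4 that rose, and 13 falls and 4 rises were called with the division term. Itgb7 and Itga4, which together form the gut-homing integrin, had 3370.3 and 3256 at 0 h and 252 and 238 at 2 h (-3.68 ± 0.11) and 2396 and 2365 at 0 h and 378 and 356 at 2 h (-2.65 ± 0.09). The sphingosine phosphate receptor gene S1pr4 had 4444 and 4432 at 0 h and 792 and 770.0 at 2 h (-2.48 ± 0.07), while its relative S1pr3 rose from 474 and 406 to 1448 and 1406 (1.67 ± 0.10). The adhesion genes Icam2 (-2.23 ± 0.07) and Selplg (-1.74 ± 0.08), a ligand of selectins, fell.

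Genes linked to quiescence mostly fell. Of 31 genes of the KLF and FOXO families and their partners, 23 fell and 5 rose (median -1.10), and 20 of the falls were called with the division term. Foxo1, a factor that PI3K signalling keeps out of the nucleus, had 3968 and 3623 at 0 h and 769.6 and 724 at 2 h (-2.32 ± 0.09), on all 3 of its probe sets. Klf13 had 3039 and 2831 at 0 h and 322 and 294 at 2 h (-3.19 ± 0.10), and Klf2, which keeps naive lymphocytes resting and in circulation, had 2725 and 2806 at 0 h and 583 and 571 at 2 h (-2.23 ± 0.09). For all 3 genes both 2 h arrays lay well below both 0 h arrays, but they were named for small p, and 78.7% of all genes tested had no overlap. Tsc22d3, the glucocorticoid-induced leucine zipper gene, and the FOXO target Sesn1 fell (-2.53 ± 0.11 and -1.40 ± 0.07). Cdkn1a, a cell cycle inhibitor, went against the list, from 96.9 and 123 to 1015 and 857 (2.92 ± 0.14).

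Transcription factors of B cell identity gave 17 falls and 8 rises of 30, and 13 and 4 of these were called with the division term. Irf4, which drives the plasma cell and germinal centre programs at different doses, had 2561 and 2628 at 0 h and 9872 and 9853 at 2 h (1.92 ± 0.05). Bcl11a fell on all 6 of its probe sets (4984 and 5314 at 0 h and 928 and 902 at 2 h, -2.47 ± 0.08). The Ikaros family genes Ikzf1 (-2.08 ± 0.08) and Ikzf3 (-1.59 ± 0.07), the octamer coactivator gene Pou2af1 (-1.70 ± 0.06) and Ets1 (-1.15 ± 0.06) fell.

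Survival and cell cycle genes moved in both directions. Bcl2, a survival gene, had 5121 and 4941 at 0 h and 1054 and 1052 at 2 h (-2.24 ± 0.06), and all 5 of its probe sets fell. Bcl2l11, which encodes the killer BIM, had 3073 and 3388 at 0 h and 11372 and 11399.9 at 2 h (1.81 ± 0.11), and the proapoptotic Bid (1.82 ± 0.13) rose as well, while the caspase gene Casp9 (-2.34 ± 0.15), the BH3-only gene Bmf (-0.68 ± 0.13) and the survival gene Mcl1 (-0.58 ± 0.05) fell. Mcl1 is not settled, since 2 of its 6 probe sets rose and 4 fell. Of 17 genes of the family and its partners, 4 rose and 8 fell. Among G1 genes 9 of 17 rose and 6 fell. Ccnd2, the D cyclin that B cells need to divide after receptor signals, had 1229 and 1299 at 0 h and 3866 and 3752 at 2 h (1.58 ± 0.06), and 6 of its 7 probe sets rose. Cyclin-dependent kinase gene Cdk4 (1.30 ± 0.07) and Cks1b (1.25 ± 0.07) rose, and Ccnd3 (-1.23 ± 0.14) and the inhibitor Cdkn1b (-2.41 ± 0.16) fell. Of the named falls in these lists, those of Cdkn1b (-0.90 ± 0.35) and Mcl1 (-0.16 ± 0.13) were not called with the division term. In all, 3 rises and 4 falls of the BCL2 list and 4 and 4 of the G1 list were.

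Genes of DNA replication rose and fell at shares near those of all genes tested. Of 30 replication genes 6 rose and 11 fell (median -0.37; 9 and 8 with averaged probe sets), and of 19 genes of G2 and mitosis 0 rose and 9 fell (median -0.45), and 2 and 0 of the rises and 5 and 5 of the falls were called with the division term. Pcna, the sliding clamp, stood out with 1869.7 and 2005 at 0 h and 12557 and 11989.8 at 2 h (2.65 ± 0.06), and the flap nuclease gene Fen1 (1.16 ± 0.10) rose. Pold1, the catalytic subunit of a replicative polymerase, had 3552 and 3251 at 0 h and 701 and 544 at 2 h (-2.43 ± 0.12), and the nucleotide reductase gene Rrm2 (-1.42 ± 0.13) fell. The proliferation marker Mki67 had 791 and 732 at 0 h and 132 and 119 at 2 h (-2.45 ± 0.39), and the mitotic genes Top2a (-1.54 ± 0.18), Bub1b (-2.40 ± 0.30) and Ube2c (-1.81 ± 0.27) fell from dim or moderate signals.

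**Figure D3:**
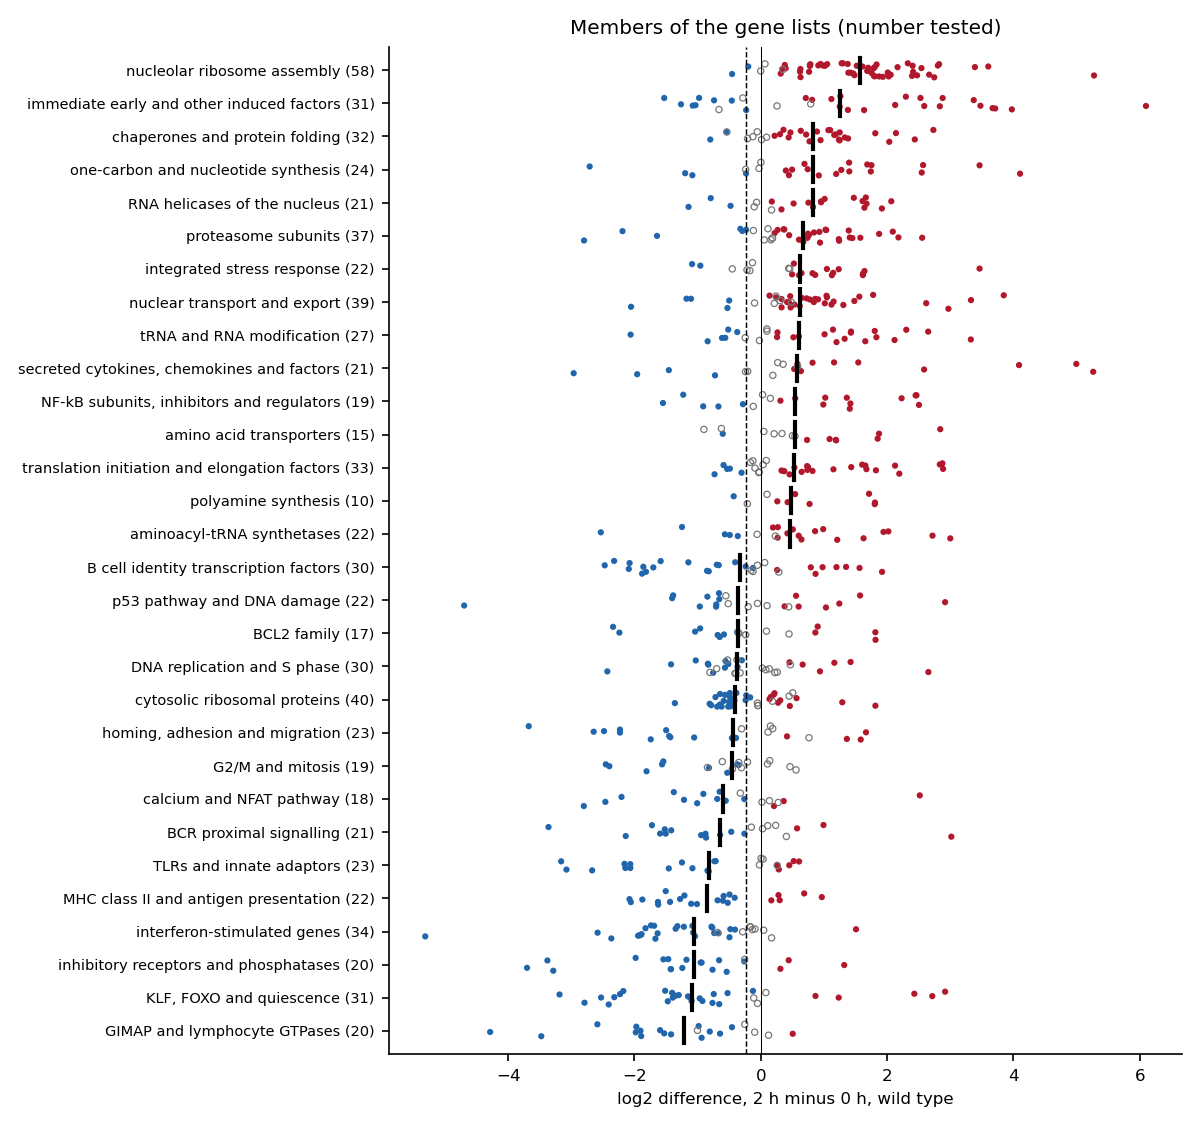
Log2 difference between 2 h and 0 h in wild type for each tested member of the 15 gene lists with the highest and the 15 with the lowest medians, ordered by median (marker lists left out). Filled points are called genes, open points are not, the short bar is the list median, and the dashed line is the median of all 12190 genes (-0.24), with nucleolar ribosome assembly (median 1.56) at the top.

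Genes of nucleolar ribosome assembly rose nearly throughout. Of 58 nucleolar genes that assemble ribosomes, 53 rose and 2 fell, with a median of 1.56, and 50 of the rises were called with the division term. Nop16 had 133 and 138 at 0 h and 1803 and 1851 at 2 h (3.60 ± 0.09), Nhp2, a protein of the RNPs that guide pseudouridylation, had 3736 and 3538 at 0 h and 12756 and 12489 at 2 h (1.79 ± 0.05), and the nucleolar GTPase gene Gnl3 had 1269.9 and 1245 at 0 h and 6601 and 6759.9 at 2 h (2.39 ± 0.06). Every 2 h array was above every 0 h array in each case, but these genes were named for small p, and 78.7% of all genes tested had no overlap. Brix1 (2.47 ± 0.07) and Utp6 (2.67 ± 0.07) followed, and Bms1 fell slightly (-0.45 ± 0.04). RNA helicases of the nucleus gave 15 rises and 3 falls of 21, with Ddx21 (1.92 ± 0.09) and Dhx33 (2.07 ± 0.11), both linked to ribosomal DNA transcription, in front, and Ddx17 (-0.79 ± 0.05) against, and 9 of the rises were called with the division term. Genes of the polymerases that make ribosomal and transfer RNA gave 14 rises and 10 falls of 29. Polr1b, the second largest subunit of polymerase I, had 139 and 56 at 0 h and 1253 and 1103 at 2 h (3.50 ± 0.24), and Znrd1 (1.38 ± 0.06), Twistnb (1.65 ± 0.10) and Polr1c (0.71 ± 0.05) rose, while Gtf3c2, a subunit of a polymerase III factor, fell (-1.34 ± 0.09). Of these rises 11 and of the falls 1 were called with the division term.

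The genes of ribosomal proteins that could be tested had no such common rise. Of 72 cytosolic ribosomal protein genes listed, 41 had a probe set assigned to 1 gene alone, and 40 were tested. Of these 40 genes 10 rose and 24 fell (median -0.40), but 0 of the falls and 2 of the rises were called with the division term, where the median was -0.02. With quantile normalization 12 rose and 10 fell, so the direction of this list depends on the scaling, and the rises were 6 without 0 h replicate 2 and 5 without 2 h replicate 1. Rpl10a had 24914 and 25404 at 0 h and 15525 and 15058 at 2 h (-0.72 ± 0.04) and Rps20 had 26396 and 27831 at 0 h and 17155 and 16444 at 2 h (-0.69 ± 0.04). These are among the brightest genes of the array, and the differences were small. Rps9 went against the list, with 3269 and 3451 at 0 h and 12539 and 11213 at 2 h (1.81 ± 0.07), but 1 of its 3 probe sets fell and with the division term it was called in the opposite direction (-0.44 ± 0.14).

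Genes of translation factors and of aminoacyl-tRNA synthetases mostly rose. Translation factors gave 21 rises and 5 falls of 33 (median 0.53), 15 of the rises with the division term too. Eif4e, the cap-binding protein, had 349 and 314 at 0 h and 2431 and 2490.3 at 2 h (2.83 ± 0.09), and its helicase partner Eif4a1 had 1540.4 and 1697 at 0 h and 7269 and 7643 at 2 h (2.19 ± 0.07). The repressor of EIF4E, Eif4ebp1, fell (-0.73 ± 0.07), a call lost with the division term (-0.21 ± 0.21). The termination factor gene Etf1 (2.13 ± 0.08) and Eef1e1 (2.89 ± 0.06), part of the synthetase complex, rose. Aminoacyl-tRNA synthetases gave 15 rises and 5 falls of 22, with Tars (2.72 ± 0.07) and the complex protein gene Aimp2 (1.94 ± 0.07) up and Vars (-2.53 ± 0.09) and Qars (-1.25 ± 0.08) down. Enzymes of transfer RNA and other RNA modification gave 17 rises and 6 falls of 27, led by the methyltransferase genes Nsun2 (2.30 ± 0.07) and Trmt6 (1.80 ± 0.07), the queuine transferase gene Qtrt1 (2.65 ± 0.08) and the pseudouridine synthase gene Pus7 (3.33 ± 0.16), with the elongator subunit gene Elp3 (-2.06 ± 0.07) against. Of the 15 and 17 rises, 11 and 14 were called with the division term.

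Genes of one-carbon and nucleotide synthesis mostly rose, and so did part of the amino acid transporter genes. Slc7a5, the light chain of the transporter for large neutral amino acids, had 228 and 234 at 0 h and 1976 and 1557 at 2 h (2.84 ± 0.14), and the arginine transporter gene Slc7a1 had 2632 and 2844 at 0 h and 10117 and 9999 at 2 h (1.87 ± 0.06). Of 15 amino acid transporters 7 rose and 1 fell, 5 of the rises with the division term. Mthfd2, a mitochondrial folate enzyme, had 324 and 335 at 0 h and 3903 and 3701 at 2 h (3.46 ± 0.09), and the CTP synthase gene Ctps had 860.1 and 856 at 0 h and 5289.7 and 5059.6 at 2 h (2.57 ± 0.06). Ppat, which commits to purine synthesis, rose (2.55 ± 0.12), as did Nme1 (1.19 ± 0.07, but -0.71 with its probe sets averaged), while Prps2, a PRPP synthase gene, fell (-2.71 ± 0.10). One-carbon and nucleotide synthesis gave 17 rises and 4 falls of 24 (median 0.83), and 14 and 3 of these were called with the division term. In polyamine synthesis Odc1, the first enzyme, had 2374 and 2284 at 0 h and 8294 and 8093 at 2 h (1.81 ± 0.05). The spermidine synthase gene Srm (1.71 ± 0.06) and the catabolic gene Sat1 (1.80 ± 0.09) rose, and the gene of the ODC1 inhibitor, Oaz1, fell (-0.43 ± 0.04). Polyamine synthesis gave 7 rises and 1 fall of 10, 5 of the rises with the division term. Without 0 h replicate 2, 4 of the polyamine genes rose. Genes of the integrated stress response gave 14 rises and 2 falls of 22 (8 and 1 with the division term), and the serine synthesis gene Phgdh (-1.09 ± 0.07) was a fall beside the rise of the next enzyme, Psat1 (0.86 ± 0.07).

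Genes of protein folding, the proteasome and nuclear transport mostly rose. Chaperones gave 24 rises and 2 falls of 32 (median 0.83), 19 rises with the division term. Hspe1, a mitochondrial co-chaperonin, had 1071 and 1120.4 at 0 h and 6403 and 5638 at 2 h (2.44 ± 0.07), Dnaja2 (2.03 ± 0.06), Cct2 (1.18 ± 0.05) and Hspa9 (1.25 ± 0.06) rose, and the HSP110 gene Hsph1 (-0.80 ± 0.06) fell, where 1 of its 2 probe sets rose. Proteasome subunits gave 25 rises and 6 falls of 37, of which 19 and 4 were called with the division term. Psma4 had 306 and 298 at 0 h and 1921 and 1785 at 2 h (2.56 ± 0.08) and Psmb5, a catalytic subunit of the standard proteasome, had 3045 and 2999 at 0 h and 7429.6 and 6858 at 2 h (1.24 ± 0.06). The 3 catalytic subunits of the interferon-inducible immunoproteasome moved the other way. Psmb9 had 2992 and 2763 at 0 h and 409 and 390.0 at 2 h (-2.80 ± 0.07), Psmb10 had 2922 and 2922 at 0 h and 650.3 and 606 at 2 h (-2.19 ± 0.07) and Psmb8 had 5466 and 5605 at 0 h and 1819.7 and 1705 at 2 h (-1.64 ± 0.06). All 3 of these falls were called with the division term, at -2.70 ± 0.24, -1.71 ± 0.17 and -1.31 ± 0.13. In nuclear transport 29 of 39 rose and 5 fell, 22 of the rises with the division term. Ranbp1, a cofactor of the GTPase RAN, had 188 and 253 at 0 h and 3275 and 3445 at 2 h (3.85 ± 0.11), the importin gene Kpna2 (2.62 ± 0.08), its exporter Cse1l (1.56 ± 0.09) and the pore gene Nup98 (1.48 ± 0.09) rose, and Nup210 (-2.05 ± 0.12) fell.

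Central carbon and lipid metabolism had no common direction at 2 h. Glycolysis and hexose uptake gave 6 rises and 6 falls of 19, where the inducible hexokinase gene Hk2 (1.55 ± 0.11) and Ldha (0.77 ± 0.06) rose and Hk1 (-1.94 ± 0.16) and the transporter gene Slc2a3 (-1.33 ± 0.08) fell. Sterol and fatty acid synthesis gave 9 and 11 of 23, with Hmgcs1 (0.97 ± 0.05), Idi1 (2.27 ± 0.13) and Cyp51 (1.72 ± 0.15) up and Acaca (-1.86 ± 0.16) and Acly (-0.90 ± 0.09) down, of which the call of Acly was lost with the division term (-0.23 ± 0.17). Subunits of oxidative phosphorylation gave 16 and 15 of 34 (median 0.00). In these 3 lists 4, 6 and 7 of the rises and 1, 3 and 5 of the falls were called with the division term. Redox genes were split as well, 7 up and 7 down of 20. Gclc, which limits glutathione synthesis, had 368 and 347 at 0 h and 3899 and 3878 at 2 h (3.39 ± 0.07), the regulator gene Nfe2l2 (2.31 ± 0.11) and Txnrd1 (2.80 ± 0.16) rose, and Cat, the catalase gene, had 6409.7 and 6207 at 0 h and 1192 and 827 at 2 h (-2.65 ± 0.18), with Gpx1 (-1.74 ± 0.08) falling too.

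Interferon-stimulated genes mostly fell. Of 34 interferon-stimulated genes 25 fell and 1 rose, with a median of -1.06, and 19 falls were called with the division term. Besides Xaf1, the RNA sensor gene Ddx58 had 1089 and 1067 at 0 h and 190.3 and 202 at 2 h (-2.37 ± 0.12), Samhd1, a dNTP hydrolase, had 7662 and 9089.6 at 0 h and 2462 and 2228 at 2 h (-1.83 ± 0.08) and the ubiquitin ligase gene Trim25 had 10412 and 10641 at 0 h and 4122 and 4125 at 2 h (-1.35 ± 0.05). Parp14 fell too (-1.67 ± 0.08). The restriction factor gene Bst2 rose from a dim 20.3 and 38.9 to 108 and 114 (1.51 ± 0.24), but was -0.83 ± 0.46 with the division term. The ISRE that interferon-activated factors bind, read here as GAAA, any pair of bases and GAAA again on either strand, was in 9 of 24 promoters of the list (37.5%), in 311 of 9885 of all genes tested (3.15%) and in 81 of 1902 of those that fell at least 2-fold (4.26%). The windows of 4 falling genes are shown for that element, chosen for the match after their values were seen, namely Oas1a (-1.94 ± 0.13), Gbp2 (-2.58 ± 0.17), Stat2 (-1.92 ± 0.38) and Ifit3 (-1.07 ± 0.28).
Oas1a, chr5:120907526-120907565, strand -: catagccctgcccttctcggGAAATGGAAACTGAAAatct
Gbp2, chr3:142620584-142620633, strand +: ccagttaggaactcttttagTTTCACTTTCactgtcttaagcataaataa
Stat2, chr10:128270256-128270305, strand +: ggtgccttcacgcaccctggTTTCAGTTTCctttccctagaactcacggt
Ifit3, chr19:34583353-34583436, strand +: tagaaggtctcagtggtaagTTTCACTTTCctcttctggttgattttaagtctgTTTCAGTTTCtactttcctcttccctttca
Oas1a and Ifit3 hold 2 matches each, overlapping in Oas1a and apart in Ifit3.

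Toll-like receptors and their adaptors gave 14 falls and 5 rises of 23 (median -0.82). Sting1, the adaptor of cytosolic DNA sensing, had 2232 and 2278 at 0 h and 359.9 and 322 at 2 h (-2.67 ± 0.08), and Tlr1 had 416 and 342 at 0 h and 19.1 and 45.9 at 2 h (-3.08 ± 0.21). Nlrc3 (-3.16 ± 0.22) and Irak1 (-2.16 ± 0.20) fell, and Tirap rose (0.45 ± 0.08, but -0.50 with its probe sets averaged). With the division term 9 of the falls were called. Some of these genes are also expressed by myeloid cells, whose markers fell as given above.

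Genes of antigen presentation and of lymphocyte GTPases mostly fell. Of 22 genes of MHC class II and antigen presentation 17 fell and 5 rose (median -0.85), and 14 falls and 0 rises were called with the division term. The rises were 3 without 0 h replicate 2 or without 2 h replicate 1. H2-DMa and H2-DMb2, which load peptide on class II, had 8058 and 7991 at 0 h and 1989 and 1843 at 2 h (-2.06 ± 0.06) and 7037 and 6970.4 at 0 h and 2255 and 2255 at 2 h (-1.63 ± 0.06). Tap1, the peptide transporter of class I, had 1922 and 2032 at 0 h and 432 and 479.7 at 2 h (-2.08 ± 0.08), and the lysosomal protease gene Ctsh (-1.28 ± 0.05) fell. B2m, the light chain of class I, rose (0.69 ± 0.05), a call lost with the division term (0.01 ± 0.12). Of 20 GIMAP and other lymphocyte GTPase genes 15 fell and 1 rose, and all 15 falls were called with the division term. The exchange factor gene Arhgef1 had 1984 and 2149 at 0 h and 164 and 178 at 2 h (-3.48 ± 0.10), Gimap3 (-2.59 ± 0.10), Gimap4 (-1.89 ± 0.06) and Gimap1 (-1.91 ± 0.08) fell, and Dock10 (0.51 ± 0.08) rose, a call lost with the term (0.03 ± 0.17). The T and NK cell markers given above move with this list, and its members are expressed in those cells too. In G protein signalling 11 of 24 fell and 5 rose, 8 and 4 with the division term. Grk6, a receptor kinase, had 13293 and 13360.1 at 0 h and 1642 and 1458 at 2 h (-3.09 ± 0.06), Adcy7 had 11338 and 11448 at 0 h and 1720.2 and 1727 at 2 h (-2.71 ± 0.09), and the prostaglandin receptor gene Ptger4 rose from 861 and 896 to 5247 and 5403 (2.58 ± 0.07).

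Smaller groups added named genes to this picture. Of 16 circadian clock genes 9 rose and 1 fell, 5 of the rises with the division term. Bhlhe40 had 387 and 434 at 0 h and 1903 and 1789.7 at 2 h (2.13 ± 0.10), Nr1d2 (2.50 ± 0.13), Ciart (2.09 ± 0.13) and Per1 (1.08 ± 0.10) rose, and the output factor gene Dbp fell (-1.40 ± 0.09), with 0.49 ± 0.16, called in the opposite direction, under the division term. Chromatin genes gave 14 rises and 16 falls of 41 (8 and 11 with the division term, and 18 rises and 13 falls under median scaling). The H3K27 demethylase gene Kdm6b had 443 and 391 at 0 h and 5628 and 5506 at 2 h (3.69 ± 0.13), and the maintenance DNA methyltransferase gene Dnmt1 had 2520.4 and 2307 at 0 h and 479 and 438 at 2 h (-2.36 ± 0.11). Both moved on all 3 of their probe sets. In the p53 list, 7 up and 9 down of 22 (3 and 4 with the division term), Gadd45b had 983 and 1076 at 0 h and 7861 and 7898 at 2 h (2.92 ± 0.06), and Aen (1.57 ± 0.11) and Plk3 (1.24 ± 0.11) rose. Autophagy and lysosome genes gave 14 and 12 of 38 (4 and 4 with the division term), with Atg13 at 986 and 1019 at 0 h and 80.4 and 82 at 2 h (-3.39 ± 0.14), Tfeb (-2.79 ± 0.19) and Hexa (-1.01 ± 0.08) down and Ctsl (1.88 ± 0.14) and Sqstm1 (1.24 ± 0.10) up. In mRNA decay 14 rose and 7 fell of 32 (6 and 2 with the division term), among them Exosc1 (1.94 ± 0.06) and Cnot8 (1.51 ± 0.11) up and Upf2 (-1.41 ± 0.08) and Zfp36l2 (-1.44 ± 0.10) down.

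Wild-type cells at 12 h give a later point for the same genes. Both comparisons use the same 0 h arrays, so their values stand side by side with no test of likeness, and the 12 h arrays lie with the 0 h arrays in the control-probe division. In all, 5842 genes were called at 12 h (47.9%), 24.8% of all genes tested higher and 23.1% lower, with a median of 0.03. Nr4a3 stood at 796 and 928 at 12 h (2.76 ± 0.10 against 0 h), Ccl4 at 1008 and 1157 (2.49 ± 0.10) and Myc at 393 and 426 (0.08 ± 0.12). These 3 signals lay between those of 0 h and 2 h or, for Myc, near those of 0 h. Il2ra was 3.37 ± 0.23 and Adm 4.18 ± 0.15, while Egr1 was 0.83 ± 0.06 and Rel 1.27 ± 0.08. Falls were still present for Foxo1 (-1.43 ± 0.09), Klf2 (-3.16 ± 0.09), Gimap7 (-3.59 ± 0.10), Cd22 (-1.25 ± 0.05) and Syk (-1.56 ± 0.07), whereas Adcy7 (-0.10 ± 0.09) and Psmb8 (0.05 ± 0.06) were not called at 12 h. Nucleolar genes gave 53 rises and 0 falls at 12 h (median 1.08), interferon-stimulated genes 2 rises and 22 falls (median -0.70) and genes of homing 3 and 18 (median -1.29). Oxidative phosphorylation gave 29 rises and 1 fall (median 0.77) and sterol synthesis 16 and 4 (median 1.12), against medians of 0.00 and 0.02 at 2 h. Immediate early genes gave 11 rises and 13 falls.

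**Figure D4:**
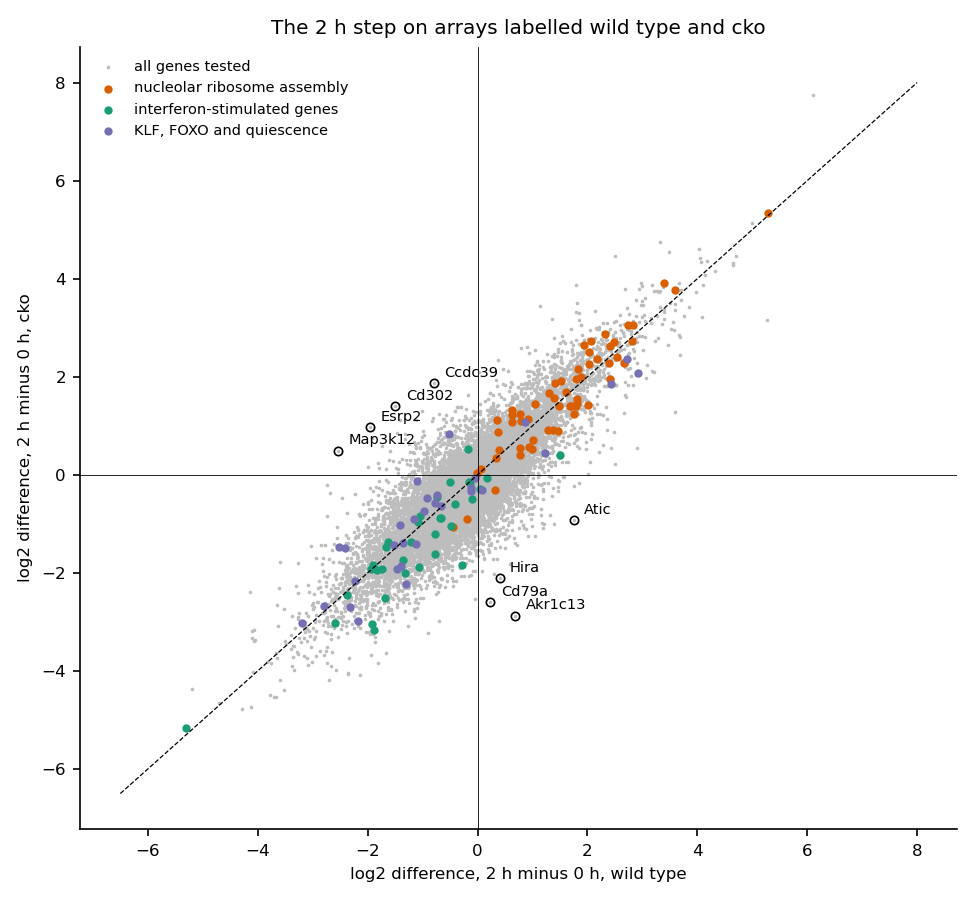
Log2 difference between 2 h and 0 h in Zfx cko (vertical) against wild type (horizontal), 1 point per gene, for all 12190 genes in grey and 3 gene lists in colour. The 8 genes with the largest called differences between both responses are labelled, and the dashed line marks equal responses.

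The arrays labelled cko hold the same time step in cells that share no array with it, and they cross the control-probe division in the same direction. In cko 7684 genes were called (63%), 23.8% of all genes tested higher and 39.2% lower, with a median of -0.32. Of the 2867 rises in wild type, 2351 rose in cko (82% of the wild-type rises and 80.9% of the 2907 cko rises), and of the 4410 falls 3641 fell in cko (82.6% of the wild-type falls and 76.2% of the 4777 cko falls). All 64 rises and all 69 falls of at least 8-fold in wild type were called in the same direction in cko. Zfx had signals of 983 and 1041 at 0 h and 809.6 and 789.6 at 2 h in wild type, a called fall of -0.33 ± 0.09. On the arrays labelled cko it had 2189 and 2618 at 0 h and 974 and 1035 at 2 h (-1.24 ± 0.09), so this probe set was higher there than in wild type. No source used here gives the deleted part of the gene, so the probe set does not check the label, and directions drawn from it are those of the arrays as labelled.

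The difference of both responses was called for 2491 genes (20.4%), 8.59% of all genes upwards and 11.8% downwards. Values are cko minus wild type. Cd79a, the other signalling chain of the receptor, was not called in wild type (1363 and 1012 at 0 h and 1505 and 1276 at 2 h, 0.24 ± 0.12) and went from 2431 and 2391 to 389 and 378 in cko (difference -2.84 ± 0.16, adjusted p = 2.28e-07). The purine synthesis gene Atic rose in wild type (1.75 ± 0.09) and fell in cko (-0.93 ± 0.09, difference -2.68 ± 0.12). Akr1c13 (-3.56 ± 0.51) and the histone chaperone gene Hira (-2.51 ± 0.55) were the other large differences downwards, with wild-type signals of 5.96 and 2.08 at 0 h and 13.9 and 18.6 at 2 h for Akr1c13 and of 48.3 and 49.2 at 0 h and 61.8 and 77.9 at 2 h for Hira. The signals of Akr1c13 are below and those of Hira above the median signal of the wild-type arrays of the same time (38.3 and 36.5 at 0 h and 29.1 and 32.1 at 2 h). In the other direction the kinase gene Map3k12 fell in wild type from 287 and 257 to 25.9 and 43.2 and was 117 and 115 and 179 and 161 in cko (difference 3.02 ± 0.38). The splicing regulator gene Esrp2 (2.94 ± 0.32), Cd302 (2.90 ± 0.33) and Ccdc39 (2.67 ± 0.37) followed. Nr4a3 rose in both genotypes but by more in cko (difference 1.64 ± 0.15), from a lower signal at 0 h (36.4 and 32.5), and Adm by less (difference -2.11 ± 0.21). Among the nucleolar genes the difference was called for 9 upwards and 14 downwards of 58, and among interferon-stimulated genes for 0 and 6 of 34.

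**Figure D5:**
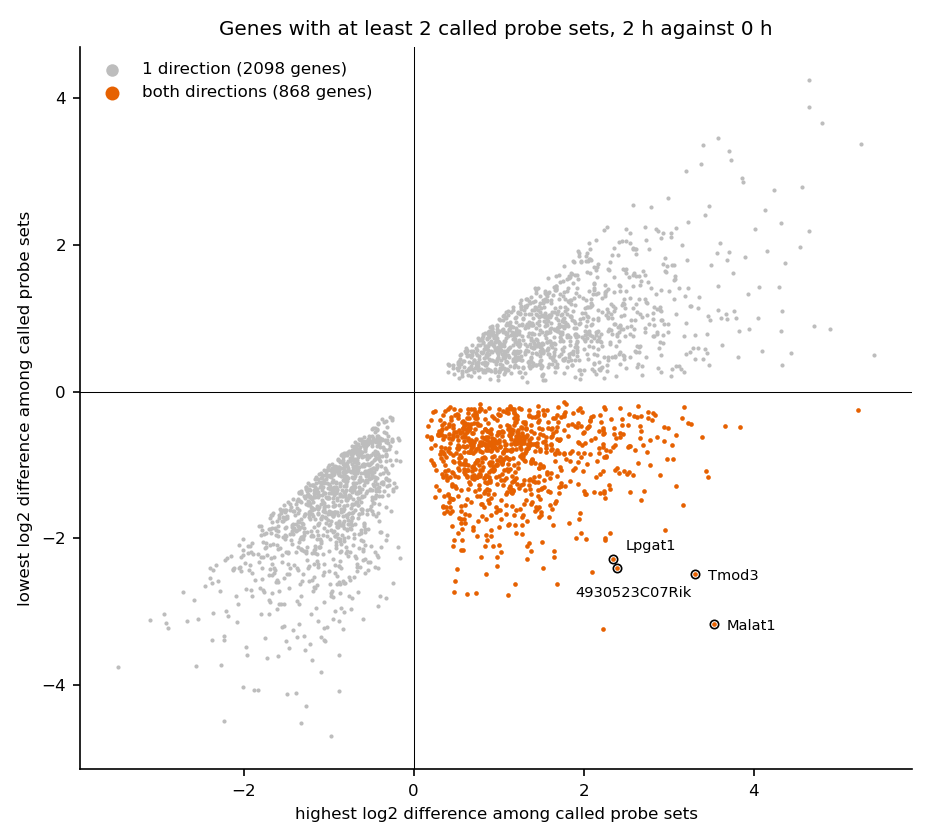
Lowest against highest log2 difference between 2 h and 0 h among the called probe sets of a gene, for the 2966 genes with at least 2 called probe sets in wild type. Points at the lower right are the 868 genes with probe sets called in both directions, and the 4 most discordant that the naming rule takes are labelled.

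Probe sets of 1 gene did not always tell the same story. Of 2966 genes with at least 2 called probe sets, 868 (29.3%) had a rise and a fall, and for 167 both were at least 2-fold. The same share was 32.6% in cko between 2 h and 0 h, which crosses the control-probe division too. Between arrays on the same side of the division it was 19.3% for wild type at 12 h against 0 h. It was 8.1% (61 of 754 genes) for cko against wild type at 2 h. For the difference of both responses it was 34.5% (184 of 533 genes), the highest of these shares. An effect of the division cancels in that difference only where it is equal in both genotypes. From 0 h to 2 h the actin ratio went from 3.27 and 3.33% to 8.51 and 8.41% in wild type. In cko it went from 1.99 and 1.80% to 10.6 and 10.8%. The shares of genes with both directions rest on different numbers of called probe sets, and the part of the division in them was not tested. The nuclear long non-coding RNA Malat1 ran from -3.17 to 3.53 over its 7 tested probe sets, and Tmod3, an actin-capping gene, from -2.48 to 3.31 over 5. The Riken clone 4930523C07Rik (-2.41 to 2.40) and Lpgat1 (-2.27 to 2.34) came next. For such genes the direction at 2 h differs with the probe set read. Among the genes named here, 15 have probe sets called in both directions, namely 4930523C07Rik, Gtf3c2, H2-DMb2, Hsph1, Irak1, Lpgat1, Malat1, Mcl1, Nfatc3, Nfe2l2, Nme1, Ptprc, Rps9, Tirap and Tmod3. Of the 64 rises of at least 8-fold 4 had a probe set called in the opposite direction, and of the 69 falls 0 had. In all, 2588 of the rises and 3891 of the falls were free of such a conflict, but these counts include genes with 1 tested probe set. Of 1670 rises with at least 2 tested probe sets, 627 had all of them called as rises. Of 2348 such falls, 661 had all of them called as falls. Of the 268 genes named in the text 264 were called at 2 h, and 218 of these were called the same way with the division term, 44 were not called and 2, Dbp and Rps9, were called the opposite way. Besides those for which it is given above, the genes that lost their call with the term were Atic, Bms1, Cblb, Ccdc39, Cd302, Cnot8, Ddx17, Esrp2, Ets1, Gtf3c2, Hexa, Hk1, Hsph1, Ifit3, Il4ra, Jund, Lpgat1, Malat1, Map3k12, Mxi1, Nfatc3, Oaz1, Phgdh, Rpl10a, Rps20, Sqstm1, Tfeb, Tirap, Tmod3, Top2a, Zfx and Znrd1.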

How the data were processed

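The values are linear array signals (intensity) of 12 Affymetrix mouse arrays, deposited by the authors as 1 table and made with GCOS 1.4 per the submitters' processing notes. No source used here names the summary algorithm. The 2% trimmed mean of the intensities is 250 on every array, as tested on the table. Probe sets were named through the platform annotation table. Signals were taken as log2(signal + 16) without further normalization. Probe sets whose mean over all arrays was not above the 40th percentile were left out, which left 21905, and the brightest probe set stood for each of 12190 genes. limma 3.58.1 (R 4.3.3) was fitted with 6 group means on all 12 arrays and an intensity trend (lmFit and eBayes, two-sided, Benjamini-Hochberg, threshold 0.05). The number of arrays, with 6 residual degrees of freedom, limits the precision. On simulated data with 200 of 12190 genes changed, the wild-type 2 h comparison recovered 36% of log2 steps of 0.5. It recovered 72% of steps of 1 and 98% of steps of 2, with 8 false calls. The simulation had independent noise and no control-probe division, and in the data 59.7% of genes were called, so these rates need not carry over.

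The comparison, the gene lists and the tests were chosen with earlier results of these data known. Named genes are the 15 largest rises and 15 largest falls with arrays that do not overlap (no predicted genes, Riken clones or immunoglobulin segments), up to 6 members of each described list with the smallest p and the strongest called member against the majority, the 4 largest differences between both genotypes in each direction, the 4 genes with the most discordant probe sets, and Zfx. Other genes are said to be chosen after their values were seen, except the markers of the sort and S100a8. Replicate numbers did not pair arrays: same-numbered deviations of different groups correlated between -0.014 and 0.013. Alternatives were other normalizations, pseudocounts, filters and probe set rules, a block, a term for the control-probe division, a size threshold and leaving out arrays. Promoter, microRNA and motif positions come from RefSeq tables (GRCm38.p6).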

Additional observations from a re-analysis of the deposited data

Results flagged for a closer look

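The 2 h responses of wild type and cko were compared by the interaction term of the limma fit, and 2491 genes passed (adjusted p under 0.05), among them 111 of the 268 genes named above, some of which were named for this difference. Values are log2 differences, cko minus wild type, each from 2 arrays in each of 4 groups. The cko arrays at 0 h and the wild-type arrays at 0 h lie on the same side of the control-probe division, as do both pairs at 2 h. The step across it was larger in cko. The actin ratio went from 3.27 and 3.33% to 8.51 and 8.41% in wild type and from 1.99 and 1.80% to 10.6 and 10.8% in cko. The 18S signal went from 6636 and 7305 to 1299 and 1262 in wild type and from 7124 and 7553 to 1022 and 1085 in cko. No cause of the differences between both responses was tested.

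Among genes that rose in both genotypes, the rise was larger in cko for Nr1d2 (1.95), Nr4a3 (1.64), Pus7 (1.42), Cyp51 (0.72), Tars (0.68), Sat1 (0.60), Nsun2 (0.59), Slc16a1 (0.56) and Aen (0.54). The rise in cko was also the larger one for Cse1l (0.51), Eif4a1 (0.51), Tgfbr1 (0.49), Egr1 (0.47), Il21r (0.43), Cks1b (0.37), Cdk4 (0.37) and Slc3a2 (0.33). The rise was smaller in cko for Adm (-2.11), Kdm6b (-1.25), Tnfaip3 (-0.99), Ciart (-0.93), Ccl3 (-0.87), Dusp4 (-0.86), Cdkn1a (-0.84), Gadd45b (-0.81) and Mthfd2 (-0.81). A smaller rise in cko was also found for Txnrd1 (-0.79), Hmgcs1 (-0.76), Fen1 (-0.75), Errfi1 (-0.69), Orai1 (-0.69), Malat1 (-0.68), Nup98 (-0.66), Aimp2 (-0.58) and Nfkbid (-0.57). Smaller still than in wild type were the rises of Slc25a33 (-0.55), Exosc1 (-0.55), Ccnd2 (-0.53), Bcl2l11 (-0.52), Slc7a1 (-0.44), Nhp2 (-0.39), Icam1 (-0.39), Utp6 (-0.38) and Sub1 (-0.25). 

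Among genes that fell in both genotypes, the fall was smaller in cko for Diras2 (1.74), Dusp6 (1.27), Tsc22d3 (1.06), Top2a (1.02), Prps2 (1.0), Cdkn1b (0.92), Ttll1 (0.92), Rasgrp1 (0.87) and Kbtbd11 (0.81). A smaller fall in cko also passed for Psmb9 (0.74), Acaca (0.70), Tap1 (0.44), Phgdh (0.44), Psmb10 (0.41), Sesn1 (0.39), Icam2 (0.32) and Pou2af1 (0.30). The fall was larger in cko for Mxd4 (-2.04), Jun (-1.81), Ets1 (-1.59), Jund (-1.54), S100a8 (-1.39), Ltb (-1.25), Cat (-0.97), Cr2 (-0.92) and Zfx (-0.91). Larger falls in cko were also found for Tfeb (-0.87), Hsph1 (-0.87), Ctsh (-0.86), Dok3 (-0.84), Cblb (-0.83), Nup210 (-0.81), Grk6 (-0.79), Bmf (-0.69) and Sting1 (-0.69). The same direction of difference held for Ly6e (-0.69), Bank1 (-0.65), Ighm (-0.64), Bms1 (-0.61), Bcl11a (-0.60), Fcer2a (-0.57), Slc2a3 (-0.53), Cd22 (-0.52) and Ikzf3 (-0.51). The remaining larger falls in cko were those of Gimap7 (-0.49), Ptprc (-0.39), Trim25 (-0.38), Ddx17 (-0.38), Syk (-0.36), Elp3 (-0.33), Mcl1 (-0.26) and Rps20 (-0.21). 

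Both genotypes were called in opposite directions for Esrp2 (2.94), Cd302 (2.90), Atic (-2.68), Ccdc39 (2.67), Mnt (-1.26) and Lpgat1 (-0.64). Called in 1 genotype and not in the other were Akr1c13 (-3.56), Map3k12 (3.02), Cd79a (-2.84), Hira (-2.51), Max (-1.48), Ube2c (1.40), Bst2 (-1.10), Ccnd3 (1.01) and Eif4ebp1 (0.60).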

How the results depend on the processing

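In wild type at 2 h the 7277 called genes became 4708 with a term for the control-probe division (2759 lower, with 1 time effect for both genotypes), 3724 with a 2-fold threshold (1370 higher and 2354 lower) and 12452 over every probe set (5708 higher and 6744 lower, with more features tested). Counting only genes with no probe set called in the other direction, an alternative added after seeing the data, gave 6479. The 2-fold threshold gave 4274 in cko (1515 and 2759), 599 for the difference of responses (243 and 356) and 2068 in wild type at 12 h (975 and 1093). Averaging the probe sets of a gene gave 1594 for the difference of responses (842 lower). The cause was not tested. Other normalizations, pseudocounts, filters, priors and arrays kept these counts within 1.5 times. Leaving out 1 array gave 6460 to 6670 genes in wild type at 2 h (2586 to 2677 higher, 3874 to 4041 lower), 6975 to 7147 in cko (2656 to 2769 and 4315 to 4378), 1837 to 2075 for the difference (725 to 880 and 1112 to 1195) and 5092 to 5208 at 12 h (2638 to 2727 and 2411 to 2538), with the lone array of a group assumed to vary like the others. With the replicate block the counts were 7230, 7666, 2465 and 5827, and no call of a named gene in wild type changed.

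The fit with the division term gives 1 time effect for both genotypes and not a wild-type value. Its direction was opposite to that of wild type for Bms1 (0.11), Bst2 (-0.83), Ccdc39 (1.09), Cd302 (1.30), Cd79a (-2.38), Dbp (0.49), Fos (0.23), Hsph1 (0.60), Lpgat1 (-0.34), Map3k12 (0.010), Max (-0.42), Oaz1 (0.075) and Rps9 (-0.44). Of these, Ccdc39, Cd302, Cd79a and Map3k12 were named above for their large differences between genotypes. Directions in wild type reversed with averaged probe sets for Hsph1 (0.15), Lpgat1 (-0.22), Nfatc3 (0.25), Nme1 (-0.71) and Tirap (-0.50). The term assumes 1 time effect for both genotypes, which the 2491 genes with different responses do not meet. The control-probe division and the 2 h step overlap in wild type, a 2 h culture without anti-IgM was not analysed here, and 2 arrays a group, possibly technical duplicates, set the error. Signals near the bottom of the array carry no detection call, so low values are the least certain.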
